A study of Homo sapiens with 96 samples.

Results

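This report describes cultures labelled Fluoxetine IC5 against unexposed control cultures, chosen as the 8 libraries whose column names start with Fluoxetine_IC5- and the 8 whose names start with control-, which together are 16 of the 96 libraries of the series. The study exposed a human neuron and astrocyte co-culture to 5 compounds, each at a concentration labelled IC5 and one labelled IC20/100, and measured RNA by sequencing, with 8 libraries in each of 12 groups. All cultures came from the human embryonic stem cell line H9, by way of neural progenitor cells that were switched to a differentiation medium and collected at day 10. The libraries of a group are described as technical replicates of 1 experiment, so every p-value below measures the spread between such libraries and not between independent experiments.

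Fluoxetine IC5 cultures received fluoxetine hydrochloride from a stock in dimethyl sulfoxide (DMSO), which made up 0.25% of the medium by volume. Fluoxetine IC20/100 cultures received the same compound in the same solvent at the other labelled concentration, and Chlorpyrifos IC5 cultures received chlorpyrifos, an organophosphate insecticide, also from DMSO. Control cultures are labelled as not exposed, and no source used here says whether they held DMSO, so the solvent and the compound cannot be told apart in any comparison with them. Nor do these sources state molar concentrations or how long the exposure lasted. All groups shared a medium with N2, a B-27 and retinoic acid supplement, nonessential amino acids, brain-derived and glial cell line-derived neurotrophic factors, dibutyryl cyclic AMP and ascorbic acid, with ciliary neurotrophic factor in the first week. The progenitors were kept at 3% oxygen before they were differentiated.

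Fluoxetine is a selective serotonin reuptake inhibitor, which blocks the serotonin transporter SLC6A4. It is also a cationic amphiphilic drug, a class of weak bases that collect in acidic lysosomes and are known to disturb the movement of cholesterol out of them. When sterol in the endoplasmic reticulum is low, SREBP2 is released from its INSIG1-bound complex and switches on the genes of cholesterol synthesis and uptake, and SREBP1 does the same for unsaturated fatty acids. A separate transcription factor, ATF4, is translated when amino acids are short or the endoplasmic reticulum is stressed, and drives genes of amino acid synthesis, import and tRNA charging.

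Recovered depth ran from 11.3 to 25.4 M reads in Fluoxetine IC5 libraries (median 20.6) and from 16.9 to 26.9 M reads in control libraries (median 19.5). Mitochondrially encoded genes took 2.65 ± 0.146% of the deposited values in Fluoxetine IC5 libraries and 2.47 ± 0.0963% in control libraries (SD, n = 8 each). The groups lay apart on the first principal component of these 16 libraries, which held 13.0% of the variance, and Fluoxetine IC5 replicate 6, the shallowest of its group, stood farthest out at -45.3, against -22.5 to -13.5 for the other 7 and 14.5 to 35.1 for control libraries. Fluoxetine IC5 replicate 3 stood apart on the second component, at -49.3. Counts without these libraries are given beside the results they touch. Each of the 6 sequencing runs held libraries of both groups.

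On the neuronal side of the co-culture label, DCX and STMN2 were measured at high levels in both groups. Other neuronal genes, some of them called, are given as lists below. Transcripts of DCX, a microtubule protein of young neurons, measured 25198 to 27904 (median 26088) in Fluoxetine IC5 libraries, against 24962 to 29688 (median 26343) in control libraries, with a log2 fold change of -0.04 ± 0.06, adjusted p = 0.782. STMN2, a tubulin-binding protein of growing axons, measured 12886 to 15757 (median 14615) in Fluoxetine IC5 libraries, against 12795 to 15923 (median 14922) in control libraries, with a log2 fold change of -0.05 ± 0.04, adjusted p = 0.593. These values are deposited counts divided by library size factors, the scale of every level below. On the astrocyte side of the label, the 17 markers used summed to 19857 to 23520 in Fluoxetine IC5 libraries and 22128 to 24501 in control libraries, but the defining ones were low. GFAP, the intermediate filament of astrocytes, had a median of 8.07 in Fluoxetine IC5 libraries and 23.1 in control libraries, AQP4, their water channel, 0.825 and 3.51, and ALDH1L1 8.5 and 16.4. In bulk RNA such as this, fewer cells of a type and less RNA per cell cannot be told apart.

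Of 20136 genes tested, 1102 were higher (5.47%) and 1197 lower (5.94%) in Fluoxetine IC5 than in control libraries at an adjusted p below 0.05 (limma on log2 of the deposited value plus 2, Benjamini-Hochberg over all genes). Changes of at least 1.5-fold were seen in 139 of the higher genes (0.69% of those tested) and 351 of the lower ones (1.74%), so the large changes were mostly falls. All 8 Fluoxetine IC5 libraries lay above all 8 control libraries for 226 genes (1.12%) and below them for 357 (1.77%). Without Fluoxetine IC5 replicates 3 and 6 and control replicate 7, 3 libraries that stood apart on the components or in several named genes, 803 genes were higher and 948 lower. Below, a value in parentheses after a gene is its log2 fold change of Fluoxetine IC5 over control with the standard error and the adjusted p from this fit, and positions are those of GENCODE 29 on GRCh38. List counts of Fluoxetine IC5 against control stand beside the 5.47% of all tested genes that were higher and the 5.94% lower.

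**Figure D1:**
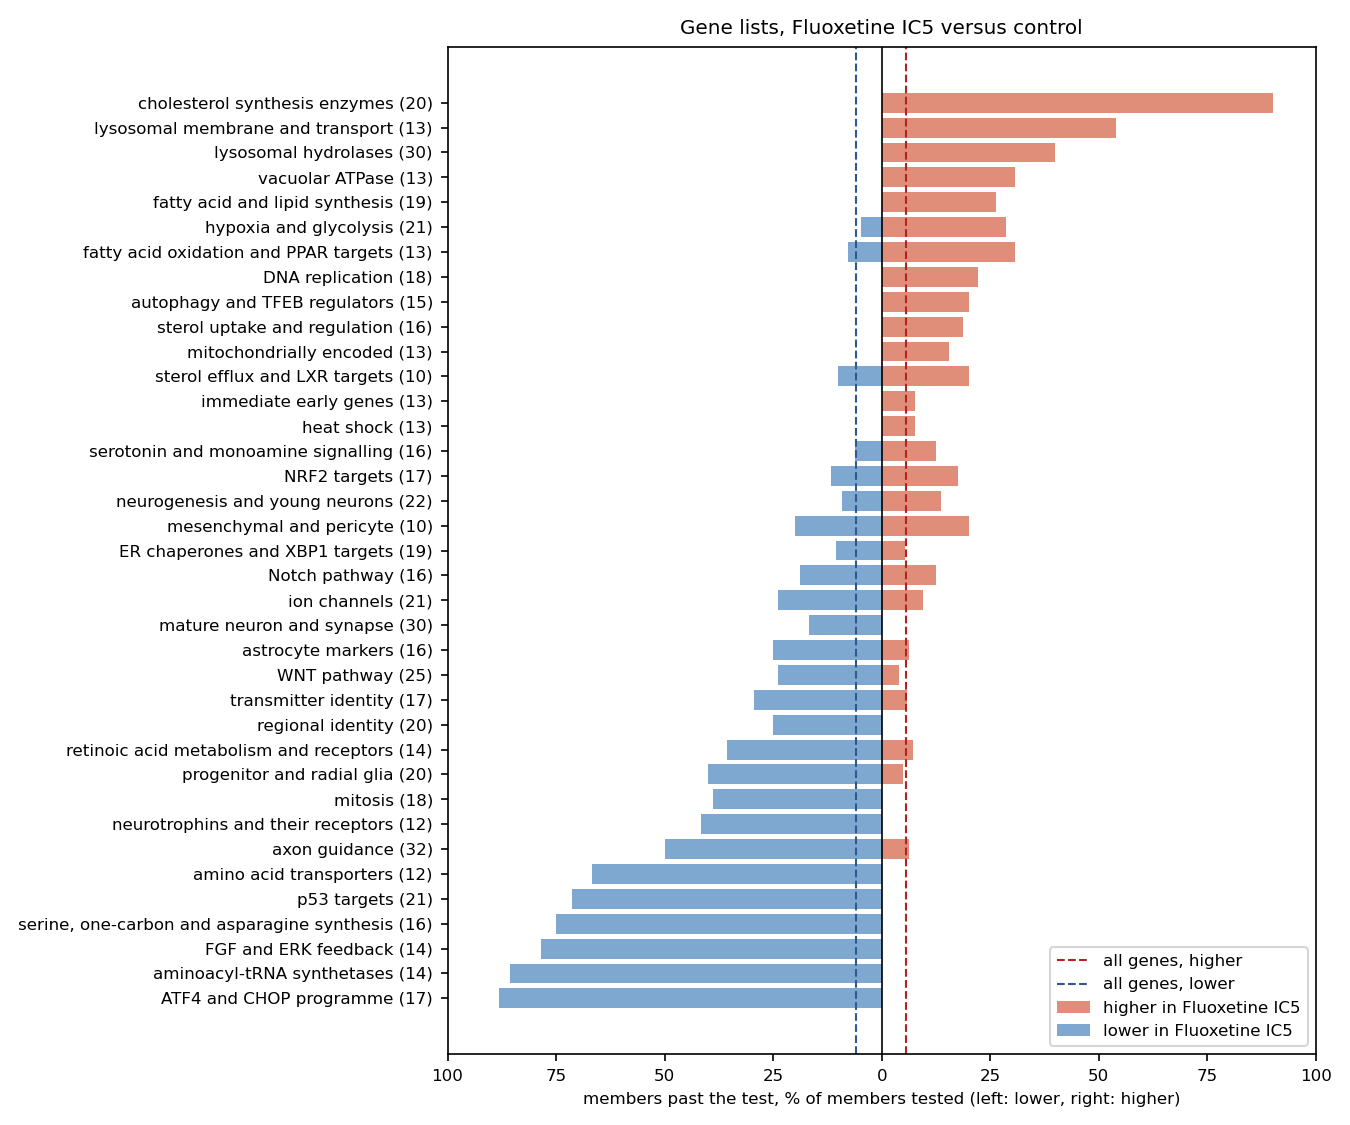
Percent of tested members of each gene list called higher (right) or lower (left) in Fluoxetine IC5 than in control libraries, for lists with at least 10 tested members, with dashed lines at the 5.47% and 5.94% of all tested genes. Cholesterol synthesis reaches farthest to the right, with 18 of 20 members, and the ATF4 and tRNA synthetase lists farthest to the left, with 15 of 17 and 12 of 14.

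Enzymes of cholesterol synthesis rose together. Of 20 enzymes tested, 18 were higher and none lower, with a median log2 fold change of 0.39 beside 0.00 over all genes tested (5.47% of which were higher). For 11 of the 18 the groups did not overlap, beside 1.12% of all tested genes, and 16 were called without the 3 libraries that stood apart. The rises described next run from the making of HMG-CoA to the closing of the sterol rings.

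HMGCS1, which joins acetyl units into HMG-CoA, measured 31778 to 35758 (median 33997) in Fluoxetine IC5 libraries, against 22819 to 25720 (median 24092) in control libraries. For HMGCS1 the ranges did not overlap, at a log2 fold change of 0.50 ± 0.04, adjusted p = 4.63e-16. ACAT2, which supplies acetoacetyl-CoA to the first step, measured 2518 to 3072 (median 2818) in Fluoxetine IC5 libraries, against 1900.2 to 2256 (median 2095) in control libraries. The ACAT2 ranges were separate, with a log2 fold change of 0.43 ± 0.05, adjusted p = 1.57e-10. SQLE, which adds oxygen to squalene and is a further control point, measured 4806 to 6073 (median 5535) in Fluoxetine IC5 libraries, against 3616 to 4799.8 (median 4283) in control libraries. Every SQLE value in Fluoxetine IC5 libraries lay above every control value (log2 fold change 0.34 ± 0.04, adjusted p = 2.71e-10). LSS, which closes the sterol rings, measured 5471 to 8161 (median 6652) in Fluoxetine IC5 libraries, against 2236 to 5204 (median 4178) in control libraries. This rise of LSS left no overlap between the groups (log2 fold change 0.79 ± 0.17, adjusted p = 0.000577). Other called enzymes included TM7SF2 (0.46 ± 0.07, adjusted p = 5.9e-07), IDI1 (0.23 ± 0.04, adjusted p = 2.16e-05), EBP (0.24 ± 0.07, adjusted p = 0.0119) and FDFT1, squalene synthase (0.15 ± 0.04, adjusted p = 0.0138). EBP (adjusted p = 0.0732) and FDFT1 were no longer called without the 3 libraries that stood apart. Nor was FDFT1 called without the run term (adjusted p up to 0.07 over the alternatives). PMVK (-0.08 ± 0.08, adjusted p = 0.652) and SC5D (0.05 ± 0.12, adjusted p = 0.878) were the members that did not pass.

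The sensors and carriers of sterol moved less as a list. Of 16 genes of sterol uptake and regulation, 3 rose and none fell, with a median log2 fold change of 0.06. INSIG1, which holds the SREBP complex in the endoplasmic reticulum and is itself an SREBP target, measured 1927 to 2348 (median 2136) in Fluoxetine IC5 libraries, against 1208 to 1482 (median 1338) in control libraries. INSIG1 showed no overlap between the groups (log2 fold change 0.67 ± 0.05, adjusted p = 4.73e-18). STARD4, a soluble cholesterol carrier, measured 1697 to 2118 (median 1921) in Fluoxetine IC5 libraries, against 1189 to 1660 (median 1362) in control libraries. For STARD4 the ranges did not overlap, at a log2 fold change of 0.47 ± 0.09, adjusted p = 2.9e-05. TMEM97, which binds NPC1 and is also known as the sigma-2 receptor, measured 2005 to 2812 (median 2412) in Fluoxetine IC5 libraries, against 1601 to 1840 (median 1684) in control libraries. The TMEM97 ranges were separate, with a log2 fold change of 0.49 ± 0.06, adjusted p = 5e-10. SREBF2, which encodes SREBP2, did not pass (0.11 ± 0.06, adjusted p = 0.208). Of 10 tested genes of sterol efflux and LXR targets, 2 were higher and 1 lower. ABCA1, which exports cholesterol to apolipoproteins, was the lower one at 1586 to 1808 (median 1729) in Fluoxetine IC5 libraries, against 1775 to 2314 (median 2139) in control libraries. The ABCA1 ranges overlapped, with a log2 fold change of -0.34 ± 0.07, adjusted p = 0.000213. CYP27A1, the sterol 27-hydroxylase, measured 41.8 to 64.4 (median 53.8) in Fluoxetine IC5 libraries, against 29.6 to 37.8 (median 31.6) in control libraries. Every CYP27A1 value in Fluoxetine IC5 libraries lay above every control value (log2 fold change 0.71 ± 0.18, adjusted p = 0.00437). CYP46A1, the neuronal 24-hydroxylase, was the other that rose (0.51 ± 0.12, adjusted p = 0.00198).

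**Figure D2:**
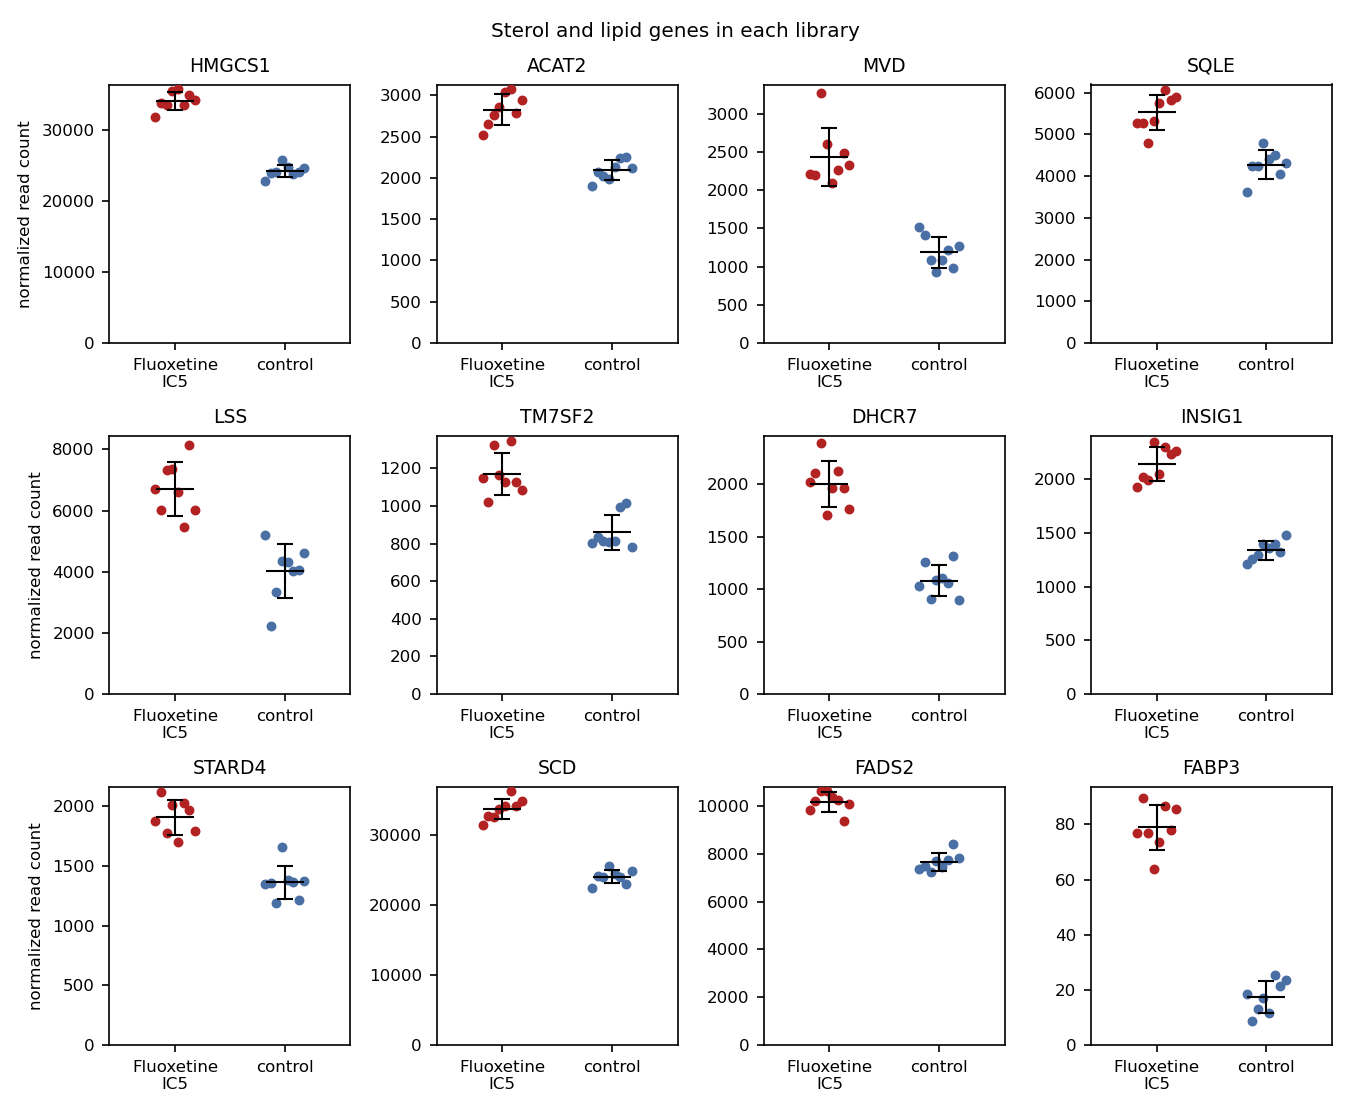
Deposited values of 12 sterol and fatty acid genes, 1 point per library, with Fluoxetine IC5 on the left and control on the right of each panel and the mean ± SD of 8 libraries. All Fluoxetine IC5 points lie above all control points for HMGCS1, ACAT2, INSIG1, SCD, FADS2 and FABP3.

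Some genes of fatty acid and lipid synthesis rose as well. Among 19 genes of fatty acid and lipid synthesis 5 rose and none fell (median log2 fold change 0.21). SCD, the stearoyl-CoA desaturase that makes oleate, measured 31514 to 36307 (median 33989) in Fluoxetine IC5 libraries, against 22513 to 25623 (median 24153) in control libraries. This rise of SCD left no overlap between the groups (log2 fold change 0.49 ± 0.03, adjusted p = 1.23e-20). FADS2, the delta-6 desaturase, measured 9389 to 10645 (median 10226) in Fluoxetine IC5 libraries, against 7253 to 8408 (median 7594) in control libraries. FADS2 showed no overlap between the groups (log2 fold change 0.42 ± 0.04, adjusted p = 2.79e-15). PNPLA3, a lipase whose gene is an SREBP1 target, measured 155 to 191 (median 170.2) in Fluoxetine IC5 libraries, against 105 to 145 (median 132) in control libraries. For PNPLA3 the ranges did not overlap, at a log2 fold change of 0.46 ± 0.13, adjusted p = 0.0139. ACLY, which makes cytosolic acetyl-CoA (0.26 ± 0.04, adjusted p = 8.85e-07), and AACS (0.24 ± 0.06, adjusted p = 0.00452) also rose, while FASN did not pass (0.28 ± 0.19, adjusted p = 0.421). Of 13 tested genes of fatty acid oxidation and PPAR targets, 4 rose and 1 fell. The one that fell was CPT1A, which admits long-chain fatty acids to mitochondria, at 136 to 249 (median 177) in Fluoxetine IC5 libraries, against 231 to 388 (median 297) in control libraries. For CPT1A some libraries of the groups overlapped, at a log2 fold change of -0.71 ± 0.13, adjusted p = 3.59e-05.

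Among the 15 largest rises outside the lists were genes of fatty acid and proline metabolism. FABP3 encodes a small carrier of fatty acids best known from heart muscle (chromosome 1, 31365625 to 31376850, minus strand). FABP3 measured 64.0 to 89.7 (median 77.4) in Fluoxetine IC5 libraries, against 8.77 to 25.2 (median 17.8) in control libraries. The FABP3 ranges were separate, with a log2 fold change of 2.16 ± 0.24, adjusted p = 2.54e-11. Its lowest Fluoxetine IC5 library was above the highest library of Fluoxetine IC20/100, which ran from 5.52 to 20.9. PRODH, the mitochondrial proline dehydrogenase (chromosome 22, 18912777 to 18936553, minus strand), measured 217 to 278 (median 240.4) in Fluoxetine IC5 libraries, against 104 to 145 (median 108) in control libraries. Every PRODH value in Fluoxetine IC5 libraries lay above every control value (log2 fold change 1.03 ± 0.13, adjusted p = 2.22e-09).

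Some lysosomal genes rose and none of those tested fell. Of 30 lysosomal hydrolases tested 12 rose and none fell (median log2 fold change 0.18), a count that was 8 without the filter on low values, 8 with only the 16 libraries fitted and 8 without the 3 libraries that stood apart. Of 13 lysosomal membrane and transport genes 7 rose and none fell (median 0.18), and of 13 subunits of the vacuolar ATPase, the pump that acidifies lysosomes, 4 rose and none fell (median 0.09). Many genes of lysosomes carry in their promoters the palindrome TCACGTGA, the core of the element read by TFEB and related factors. It was searched, on both strands at once as a palindrome, in the 250 bases before each RefSeq start site in GRCh38.p14. It was present in 300 of 35116 promoters (0.854%), and counted by gene in 1.04%. Of the 18 called lysosomal genes with a promoter entry, 4 held it, namely CTSA, LAMP1, MCOLN1 and ATP6V0D1, and over all 38 lysosomal members with an entry, called or not, 6 did (15.8%). TCACNCCAC, a written form of the sterol regulatory element, was searched on both strands of the same windows and was present in 310 promoters (0.883%), by gene in 1.09%, in 1 of 28 sterol genes with an entry (SREBF2) and in none of the 16 called ones. The stretches around the match are shown for 3 of them, because the levels of these genes are given next, with the motif in capitals and each read 5′ to 3′ along the gene's own strand. The CTSA stretch is chr20:45891263-45891334 on the plus strand, the MCOLN1 stretch chr19:7522536-7522623 on the plus strand, which holds the motif at 2 places, and the ATP6V0D1 stretch chr16:67481164-67481263 on the minus strand.
CTSA: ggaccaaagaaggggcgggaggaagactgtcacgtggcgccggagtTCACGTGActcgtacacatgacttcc
MCOLN1: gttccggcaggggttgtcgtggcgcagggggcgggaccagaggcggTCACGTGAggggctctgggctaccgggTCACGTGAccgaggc
ATP6V0D1: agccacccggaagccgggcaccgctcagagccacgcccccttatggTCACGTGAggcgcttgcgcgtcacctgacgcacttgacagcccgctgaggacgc
A match describes these letters only and is not a site shown to be bound here.

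CTSA, the protective protein that keeps neuraminidase active in lysosomes, measured 463 to 751 (median 567) in Fluoxetine IC5 libraries, against 285 to 499.9 (median 337) in control libraries. The CTSA ranges overlapped, with a log2 fold change of 0.67 ± 0.10, adjusted p = 6.24e-07. NEU1, that neuraminidase, measured 425 to 523 (median 467) in Fluoxetine IC5 libraries, against 303 to 357 (median 345) in control libraries. This rise of NEU1 left no overlap between the groups (log2 fold change 0.50 ± 0.06, adjusted p = 3.07e-10). ATP6V0D1, a subunit of the membrane part of the proton pump, measured 969 to 1182 (median 1042) in Fluoxetine IC5 libraries, against 797 to 1019 (median 854) in control libraries. For ATP6V0D1 some libraries of the groups overlapped, at a log2 fold change of 0.29 ± 0.06, adjusted p = 6.86e-05. TPP1, a peptidase lost in a form of neuronal ceroid lipofuscinosis, measured 1274 to 1665 (median 1435) in Fluoxetine IC5 libraries, against 1009 to 1249 (median 1131) in control libraries. TPP1 showed no overlap between the groups (log2 fold change 0.34 ± 0.05, adjusted p = 1.03e-06). FUCA1, the lysosomal fucosidase, measured 71.7 to 93.8 (median 79.2) in Fluoxetine IC5 libraries, against 43.3 to 62.7 (median 53.9) in control libraries. For FUCA1 the ranges did not overlap, at a log2 fold change of 0.61 ± 0.12, adjusted p = 4.5e-05.

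Among membrane genes, the log2 fold changes were 0.69 ± 0.15, adjusted p = 0.000377 for CLN3, 0.52 ± 0.12, adjusted p = 0.00117 for the cystine exporter CTNS, 0.57 ± 0.12, adjusted p = 0.000382 for the calcium channel MCOLN1, 0.40 ± 0.11, adjusted p = 0.0105 for LAMP1 and 0.18 ± 0.06, adjusted p = 0.0301 for LAMP2. NPC1, the membrane protein that passes cholesterol out of lysosomes, did not pass (0.05 ± 0.08, adjusted p = 0.787). The proteases CTSB (-0.07 ± 0.10, adjusted p = 0.752) and CTSD (0.19 ± 0.08, adjusted p = 0.123) and the saposin precursor PSAP (0.01 ± 0.05, adjusted p = 0.936) did not pass either, and LIPA, the acid lipase, rose slightly (0.18 ± 0.06, adjusted p = 0.0182). LAMP2 was no longer called without control replicate 3 or without control replicate 5 (adjusted p up to 0.0787 over the alternatives), nor LIPA without control replicate 4 (up to 0.07). Of 15 genes of autophagy and TFEB regulation 3 rose and none fell. RRAGC, a GTPase that ties mTORC1 to lysosomes, measured 445 to 682 (median 509) in Fluoxetine IC5 libraries, against 289 to 442 (median 378) in control libraries. The RRAGC ranges were separate, with a log2 fold change of 0.50 ± 0.08, adjusted p = 6.92e-07. The autophagy receptor SQSTM1 (0.07 ± 0.14, adjusted p = 0.836) and MAP1LC3B (-0.02 ± 0.05, adjusted p = 0.874) did not pass.

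The falls included most of the ATF4 and CHOP programme. Of 17 members tested 15 fell and none rose, with a median log2 fold change of -1.30 beside 0.00 over all genes tested (5.94% of which were lower). For 13 members all Fluoxetine IC5 libraries lay below all control libraries, beside 1.77% of all tested genes. Genes that make serine, one-carbon units and asparagine fell in 12 of 16 cases (median -0.97), amino acid transporters in 8 of 12 (median -0.79) and aminoacyl-tRNA synthetases in 12 of 14 (median -0.57). None of these 3 lists had a member that rose. Without the 3 libraries that stood apart the counts were 15, 12, 8 and 11.

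ATF4 binds composite elements of which TGATGNAA is one written form, where N is any base. This string was searched on both strands of the same 250-base windows. It was present in 1104 of 35116 promoters (3.14%), and counted by gene in 3.89%. Over all 47 members of the ATF4, amino acid and tRNA synthetase lists with a promoter entry, called or not, 11 held it (23.4%). Of the 37 called ones 10 did (27%), among them CHAC1, ASNS and AARS. These 3 are shown because their levels come next, with the match in capitals, which in CHAC1 and AARS is on the other strand and so reads as its reverse complement. The CHAC1 stretch is chr15:40953221-40953315 on the plus strand, the ASNS stretch chr7:97872423-97872522 on the minus strand and the AARS stretch chr16:70289640-70289739 on the minus strand.
CHAC1: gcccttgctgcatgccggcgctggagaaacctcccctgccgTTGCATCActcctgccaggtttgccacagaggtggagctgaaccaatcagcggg
ASNS: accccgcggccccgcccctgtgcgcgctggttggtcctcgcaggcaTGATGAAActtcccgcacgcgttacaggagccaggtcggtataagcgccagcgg
AARS: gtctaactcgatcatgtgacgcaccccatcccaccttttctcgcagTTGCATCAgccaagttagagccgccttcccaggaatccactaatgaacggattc
As above, the match is a description of RefSeq sequence in GRCh38.p14.

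CHAC1, an enzyme that degrades glutathione and is a common readout of ATF4 (chromosome 15, 40952962 to 40956519, plus strand), measured 56.9 to 90.8 (median 67.3) in Fluoxetine IC5 libraries, against 294 to 461 (median 371) in control libraries. Every CHAC1 value in Fluoxetine IC5 libraries lay below every control value (log2 fold change -2.37 ± 0.11, adjusted p = 6.28e-30). ATF5, a related transcription factor, measured 283 to 391 (median 303) in Fluoxetine IC5 libraries, against 1059 to 1665 (median 1321) in control libraries. This fall of ATF5 left no overlap between the groups (log2 fold change -2.08 ± 0.10, adjusted p = 8.86e-29). CEBPB, a partner factor, measured 15.6 to 24.2 (median 20.1) in Fluoxetine IC5 libraries, against 92.4 to 154 (median 127) in control libraries. CEBPB showed no overlap between the groups (log2 fold change -2.53 ± 0.13, adjusted p = 1.94e-27). TRIB3, a pseudokinase that feeds back on ATF4, measured 131 to 164 (median 151) in Fluoxetine IC5 libraries, against 349 to 663 (median 483) in control libraries. For TRIB3 the ranges did not overlap, at a log2 fold change of -1.66 ± 0.13, adjusted p = 1.62e-18. SESN2, which restrains mTORC1 when leucine is low, measured 512 to 628 (median 576) in Fluoxetine IC5 libraries, against 1277 to 1718 (median 1490.4) in control libraries. The SESN2 ranges were separate, with a log2 fold change of -1.35 ± 0.06, adjusted p = 1.95e-30. DDIT3, which encodes CHOP, measured 204 to 241 (median 223) in Fluoxetine IC5 libraries, against 384 to 700.0 (median 591) in control libraries. Every DDIT3 value in Fluoxetine IC5 libraries lay below every control value (log2 fold change -1.30 ± 0.11, adjusted p = 8.13e-16). ATF4 itself, regulated largely by translation, measured 3438 to 3943 (median 3858) in Fluoxetine IC5 libraries, against 5050.2 to 5736 (median 5398) in control libraries. This fall of ATF4 left no overlap between the groups (log2 fold change -0.53 ± 0.06, adjusted p = 4.05e-12). NUPR1 (-0.13 ± 0.18, adjusted p = 0.757) and NFIL3 (0.09 ± 0.05, adjusted p = 0.334) were the members that did not pass.

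In synthesis, ASNS, the asparagine synthetase, measured 996 to 1324 (median 1236) in Fluoxetine IC5 libraries, against 3092 to 4228 (median 3778) in control libraries. ASNS showed no overlap between the groups (log2 fold change -1.65 ± 0.07, adjusted p = 4.71e-32). PHGDH, the first enzyme of serine synthesis, measured 1532 to 2011 (median 1667) in Fluoxetine IC5 libraries, against 3252 to 4064 (median 3538) in control libraries. For PHGDH the ranges did not overlap, at a log2 fold change of -1.04 ± 0.06, adjusted p = 1.31e-24. PSAT1, the second, measured 1684 to 2015 (median 1943) in Fluoxetine IC5 libraries, against 3349 to 4326 (median 4112) in control libraries. The PSAT1 ranges were separate, with a log2 fold change of -1.10 ± 0.04, adjusted p = 3.97e-35. SHMT2, the mitochondrial enzyme that splits serine into glycine and a one-carbon unit, measured 1267 to 1604 (median 1375) in Fluoxetine IC5 libraries, against 3112 to 4088 (median 3843) in control libraries. Every SHMT2 value in Fluoxetine IC5 libraries lay below every control value (log2 fold change -1.40 ± 0.07, adjusted p = 3.94e-30). MTHFD2, which carries that unit onward, measured 257 to 355 (median 321) in Fluoxetine IC5 libraries, against 681 to 1077 (median 967) in control libraries. This fall of MTHFD2 left no overlap between the groups (log2 fold change -1.60 ± 0.08, adjusted p = 3.94e-30). PCK2, the mitochondrial phosphoenolpyruvate carboxykinase, which lies outside these lists but was among the 15 largest falls, measured 57.0 to 101 (median 74.3) in Fluoxetine IC5 libraries, against 373 to 604 (median 431) in control libraries. PCK2 showed no overlap between the groups (log2 fold change -2.56 ± 0.17, adjusted p = 2.64e-21).

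For import, SLC7A5, the exchanger of large neutral amino acids, measured 861 to 1129 (median 948) in Fluoxetine IC5 libraries, against 3573 to 5982 (median 4272) in control libraries. For SLC7A5 the ranges did not overlap, at a log2 fold change of -2.12 ± 0.11, adjusted p = 4.3e-28. SLC7A3, a cationic amino acid transporter, measured 183 to 221 (median 189.6) in Fluoxetine IC5 libraries, against 399.7 to 482 (median 429) in control libraries. The SLC7A3 ranges were separate, with a log2 fold change of -1.13 ± 0.05, adjusted p = 2.03e-30. SLC6A9, the glycine transporter GlyT1, measured 88.9 to 151 (median 115) in Fluoxetine IC5 libraries, against 384 to 501 (median 412) in control libraries. Every SLC6A9 value in Fluoxetine IC5 libraries lay below every control value (log2 fold change -1.82 ± 0.13, adjusted p = 4.73e-20). SLC38A2, which takes up small neutral amino acids, did not pass (-0.10 ± 0.10, adjusted p = 0.607). For tRNA charging, YARS measured 1876 to 2028 (median 1927) in Fluoxetine IC5 libraries, against 3244 to 3854 (median 3647) in control libraries. This fall of YARS left no overlap between the groups (log2 fold change -0.89 ± 0.04, adjusted p = 1.61e-28). AARS measured 2434 to 2726 (median 2549) in Fluoxetine IC5 libraries, against 4007 to 5231 (median 4669) in control libraries. AARS showed no overlap between the groups (log2 fold change -0.86 ± 0.06, adjusted p = 8.46e-21). VARS (-0.16 ± 0.09, adjusted p = 0.333) and HARS (0.09 ± 0.06, adjusted p = 0.396) were the synthetases that did not pass.

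**Figure D3:**
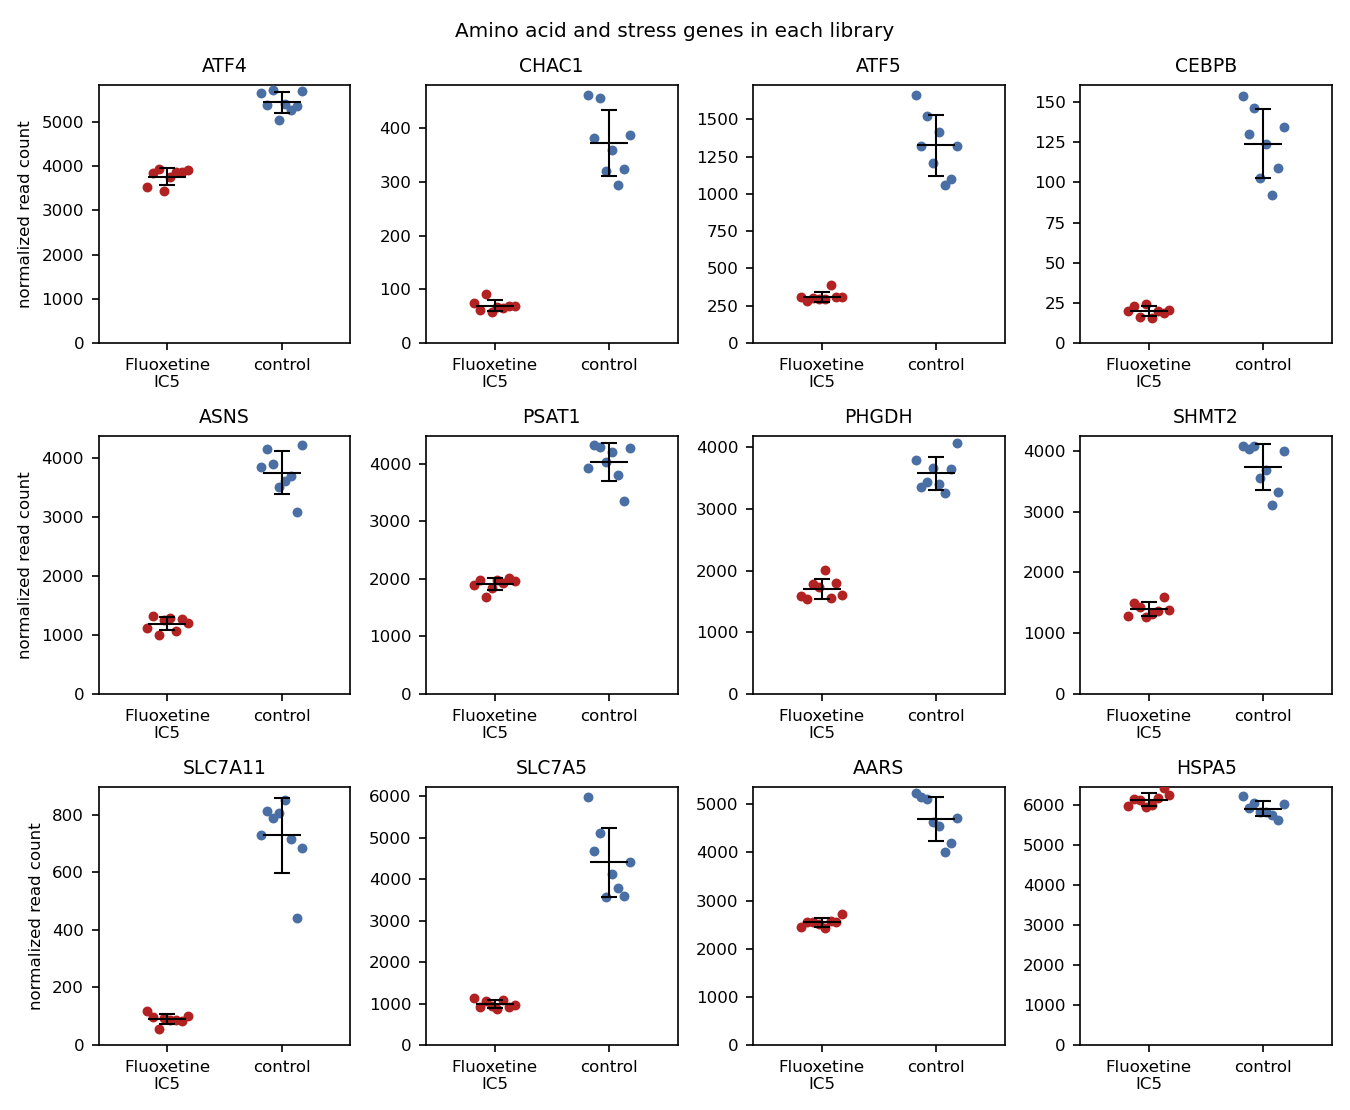
Deposited values of 12 genes of the ATF4, amino acid and endoplasmic reticulum lists, 1 point per library, Fluoxetine IC5 left and control right, with the mean ± SD of 8 libraries. The groups do not overlap for CHAC1, ATF5, CEBPB, ASNS, PSAT1, PHGDH, SHMT2, SLC7A11, SLC7A5 and AARS, while HSPA5 overlaps.

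Few endoplasmic reticulum chaperones passed the test, with 1 of 19 higher and 2 lower (median log2 fold change 0.02). HSPA5, the main chaperone of that compartment, did not pass (0.06 ± 0.04, adjusted p = 0.404). The 2 that fell were HERPUD1 (-0.89 ± 0.13, adjusted p = 1.67e-07) and XBP1 (-0.55 ± 0.06, adjusted p = 7.48e-12). Targets of p53 fell in 15 of 21 cases and rose in none (median -0.45). CDKN1A, the p21 inhibitor of cyclin-dependent kinases, measured 889 to 1152 (median 956) in Fluoxetine IC5 libraries, against 1648 to 2949.6 (median 2206) in control libraries. For CDKN1A the ranges did not overlap, at a log2 fold change of -1.14 ± 0.13, adjusted p = 4.67e-11. PMAIP1, the apoptotic protein NOXA, which ATF4 also induces, measured 59.5 to 113 (median 77.2) in Fluoxetine IC5 libraries, against 179.9 to 304 (median 280.3) in control libraries. The PMAIP1 ranges were separate, with a log2 fold change of -1.77 ± 0.10, adjusted p = 1.52e-26. MDM2 (-0.23 ± 0.13, adjusted p = 0.317) and BAX (-0.03 ± 0.20, adjusted p = 0.965) did not pass. NRF2 targets were split, with 3 of 17 higher and 2 lower, the ferritin chain FTL among the higher (0.36 ± 0.07, adjusted p = 6.86e-05) and SRXN1 among the lower (-0.64 ± 0.16, adjusted p = 0.00225), while HMOX1 (-0.11 ± 0.17, adjusted p = 0.77) and NQO1 (-0.06 ± 0.11, adjusted p = 0.81) did not pass.

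Genes of glucose uptake and glycolysis rose in part. Of 21 genes of hypoxia and glycolysis 6 rose and 1 fell (median 0.15). HK2, a hexokinase, measured 1792 to 2092 (median 1933) in Fluoxetine IC5 libraries, against 1422 to 1679 (median 1561) in control libraries. Every HK2 value in Fluoxetine IC5 libraries lay above every control value (log2 fold change 0.30 ± 0.04, adjusted p = 9.34e-08). SLC2A1, the glucose transporter GLUT1, measured 1648 to 1889 (median 1757) in Fluoxetine IC5 libraries, against 1295 to 1604 (median 1379.5) in control libraries. This rise of SLC2A1 left no overlap between the groups (log2 fold change 0.32 ± 0.06, adjusted p = 1.82e-05). P4HA1, a prolyl hydroxylase, was the one that fell (-0.24 ± 0.06, adjusted p = 0.0019).

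Some mitotic genes fell and a few replication genes rose. Of 18 mitotic genes 7 fell and none rose (median -0.23), while of 18 replication genes 4 rose and none fell (median 0.20). The replication count was 2 without Fluoxetine IC5 replicate 5, replicate 6 or control replicate 3, 6 without control replicate 7, and 1 with only the 16 libraries fitted. PLK1, a kinase of mitotic entry, measured 713 to 885 (median 789.9) in Fluoxetine IC5 libraries, against 989.6 to 1228 (median 1054) in control libraries. PLK1 showed no overlap between the groups (log2 fold change -0.45 ± 0.06, adjusted p = 2.24e-08). TPX2, a spindle assembly factor, measured 1115 to 1281 (median 1207) in Fluoxetine IC5 libraries, against 1348 to 1567 (median 1414) in control libraries. For TPX2 the ranges did not overlap, at a log2 fold change of -0.25 ± 0.04, adjusted p = 1.4e-05. The proliferation marker MKI67 did not pass (0.01 ± 0.07, adjusted p = 0.965), and MCM3, a helicase subunit, rose slightly (0.22 ± 0.06, adjusted p = 0.00774). Summed over the 18 mitotic genes, levels ran from 19303 to 23178 in Fluoxetine IC5 libraries, against 23401 to 28055 in control libraries, so the sums did not overlap.

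Progenitor genes fell in part, with 8 of 20 lower and 1 higher (median -0.24). PAX6, a transcription factor of radial glia and regional progenitors, measured 487 to 645 (median 609) in Fluoxetine IC5 libraries, against 775 to 1041 (median 945) in control libraries. The PAX6 ranges were separate, with a log2 fold change of -0.62 ± 0.09, adjusted p = 3.81e-07. SOX2, a factor of neural stem cells, also fell (-0.28 ± 0.03, adjusted p = 9.12e-10), while the progenitor filaments NES (0.00 ± 0.04, adjusted p = 0.998) and VIM (0.00 ± 0.05, adjusted p = 0.972) did not pass. In the young neuron and neurogenesis list, 3 of 22 tested genes rose and 2 fell (median 0.03). NHLH1, a basic helix-loop-helix factor of newly formed neurons, measured 1619 to 1849.5 (median 1704) in Fluoxetine IC5 libraries, against 2135 to 2396 (median 2333) in control libraries. Every NHLH1 value in Fluoxetine IC5 libraries lay below every control value (log2 fold change -0.42 ± 0.03, adjusted p = 2.41e-19). NEUROG2, a proneural factor, measured 231 to 288 (median 260.2) in Fluoxetine IC5 libraries, against 138 to 205 (median 183) in control libraries. This rise of NEUROG2 left no overlap between the groups (log2 fold change 0.52 ± 0.07, adjusted p = 6.45e-09). POU4F1, a factor of sensory neurons, measured 1501 to 1751 (median 1644) in Fluoxetine IC5 libraries, against 1085 to 1495 (median 1317) in control libraries. POU4F1 showed no overlap between the groups (log2 fold change 0.30 ± 0.03, adjusted p = 2.96e-12). Of 30 genes of mature neurons and synapses none rose and 5 fell (median -0.05), with the synaptotagmin SYT4 (-0.42 ± 0.10, adjusted p = 0.00259) and the kinase CAMK2A (-0.37 ± 0.11, adjusted p = 0.0213) among them, the CAMK2A call being lost without control replicate 2 (adjusted p = 0.0587).

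Glial and other markers are given as whole lists, because they bear on which cells the RNA came from. Of the 16 astrocyte markers tested 1 rose and 4 fell (median -0.09), and the summed levels of the list given above overlapped between the groups. All Fluoxetine IC5 libraries lay above all control libraries for 1 marker and below them for 2, beside 1.12% and 1.77% of all tested genes. FGFR3 and SPARCL1 were among those that fell (-0.54 ± 0.05, adjusted p = 2.78e-16 and -0.79 ± 0.14, adjusted p = 2.74e-05). The oligodendrocyte lineage list summed to 6799 to 7867 in Fluoxetine IC5 libraries, against 11539 to 12765 in control libraries. These sums did not overlap, although 1 of the 8 tested members fell and none rose. Mesenchymal and pericyte markers summed to 1835 to 2736 in Fluoxetine IC5 libraries, against 1761 to 2248 in control libraries, with 2 of 10 tested higher and 2 lower. COL3A1, a fibrillar collagen, measured 161 to 284 (median 186) in Fluoxetine IC5 libraries, against 91.5 to 149 (median 116) in control libraries. For COL3A1 the ranges did not overlap, at a log2 fold change of 0.75 ± 0.13, adjusted p = 1.48e-05. Neural crest markers summed to 6668 to 7399 in Fluoxetine IC5 libraries and 6622 to 7548 in control libraries. Endothelial, microglial, epithelial and pluripotent markers together summed to 180 to 277 in Fluoxetine IC5 libraries and 194 to 268 in control libraries, with none of 9 tested called. The part of any shift in cell make-up in the results above was not tested.

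Feedback genes of fibroblast growth factor signalling fell together. Of 14 tested 11 fell and none rose (median -0.48). For 7 of them all Fluoxetine IC5 libraries lay below all control libraries, beside 1.77% of all tested genes. DUSP6, the phosphatase that switches off ERK, measured 136 to 246 (median 192) in Fluoxetine IC5 libraries, against 339 to 549 (median 430.3) in control libraries. The DUSP6 ranges were separate, with a log2 fold change of -1.15 ± 0.11, adjusted p = 1.53e-14. SPRY4, a Sprouty inhibitor of the same receptors, measured 101 to 178 (median 127) in Fluoxetine IC5 libraries, against 233 to 386 (median 257) in control libraries. Every SPRY4 value in Fluoxetine IC5 libraries lay below every control value (log2 fold change -1.09 ± 0.12, adjusted p = 4.19e-11). ETV4, an ETS factor induced by ERK, measured 36.8 to 70.9 (median 53.9) in Fluoxetine IC5 libraries, against 98.4 to 187 (median 142) in control libraries. This fall of ETV4 left no overlap between the groups (log2 fold change -1.33 ± 0.16, adjusted p = 9.47e-10). DUSP4, a nuclear ERK phosphatase, measured 1130.1 to 1202 (median 1182) in Fluoxetine IC5 libraries, against 1464 to 1576 (median 1508) in control libraries. DUSP4 showed no overlap between the groups (log2 fold change -0.38 ± 0.02, adjusted p = 1.16e-21).

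Notch genes were mixed, with 2 of 16 higher and 3 lower (median 0.02). HES5, a target in radial glia, measured 1123 to 1318 (median 1198) in Fluoxetine IC5 libraries, against 1539 to 1771 (median 1639.6) in control libraries. For HES5 the ranges did not overlap, at a log2 fold change of -0.44 ± 0.07, adjusted p = 1.62e-06. HES1, a related target, measured 564 to 681 (median 619) in Fluoxetine IC5 libraries, against 392 to 528 (median 492) in control libraries. The HES1 ranges were separate, with a log2 fold change of 0.35 ± 0.07, adjusted p = 6.7e-05. The feedback inhibitor NRARP fell (-0.41 ± 0.05, adjusted p = 2.58e-09). In axon guidance 16 of 32 genes fell and 2 rose (median -0.20), with 11 called lower without the 3 libraries that stood apart. UNC5B, a repulsive netrin receptor, measured 163 to 232 (median 214) in Fluoxetine IC5 libraries, against 447 to 887 (median 635) in control libraries. Every UNC5B value in Fluoxetine IC5 libraries lay below every control value (log2 fold change -1.52 ± 0.12, adjusted p = 4.74e-17). NTN1, netrin itself, measured 1339 to 1509 (median 1393) in Fluoxetine IC5 libraries, against 1683 to 2008 (median 1846) in control libraries. This fall of NTN1 left no overlap between the groups (log2 fold change -0.39 ± 0.03, adjusted p = 3.37e-16). PLXNA2, a semaphorin co-receptor, measured 6285 to 9874 (median 8271) in Fluoxetine IC5 libraries, against 11587 to 14478 (median 13146) in control libraries. PLXNA2 showed no overlap between the groups (log2 fold change -0.63 ± 0.07, adjusted p = 6.41e-11). SEMA3A, a secreted semaphorin, measured 692 to 827 (median 753) in Fluoxetine IC5 libraries, against 492 to 650.0 (median 528) in control libraries. For SEMA3A the ranges did not overlap, at a log2 fold change of 0.47 ± 0.11, adjusted p = 0.000976.

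Genes of retinoic acid handling fell in 5 of 14 tested cases and rose in 1 (median -0.10). DHRS3, which reduces retinaldehyde and is induced by retinoic acid, measured 63.3 to 102 (median 75.8) in Fluoxetine IC5 libraries, against 152 to 225 (median 176) in control libraries. The DHRS3 ranges were separate, with a log2 fold change of -1.23 ± 0.13, adjusted p = 5.64e-12. CRABP2, which carries retinoic acid to its receptors, measured 293 to 335 (median 327) in Fluoxetine IC5 libraries, against 501 to 691 (median 580.3) in control libraries. Every CRABP2 value in Fluoxetine IC5 libraries lay below every control value (log2 fold change -0.83 ± 0.09, adjusted p = 1.23e-11). In the WNT list 6 of 25 fell and 1 rose (median -0.16), with WNT5B (-0.58 ± 0.11, adjusted p = 5.59e-05) and LGR4 (-0.34 ± 0.07, adjusted p = 0.000169) among the falls. Regional identity genes fell in 5 of 20 tested cases and rose in none (median -0.26), with EN1, a midbrain factor (-0.42 ± 0.10, adjusted p = 0.0027), among them.

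**Figure D4:**
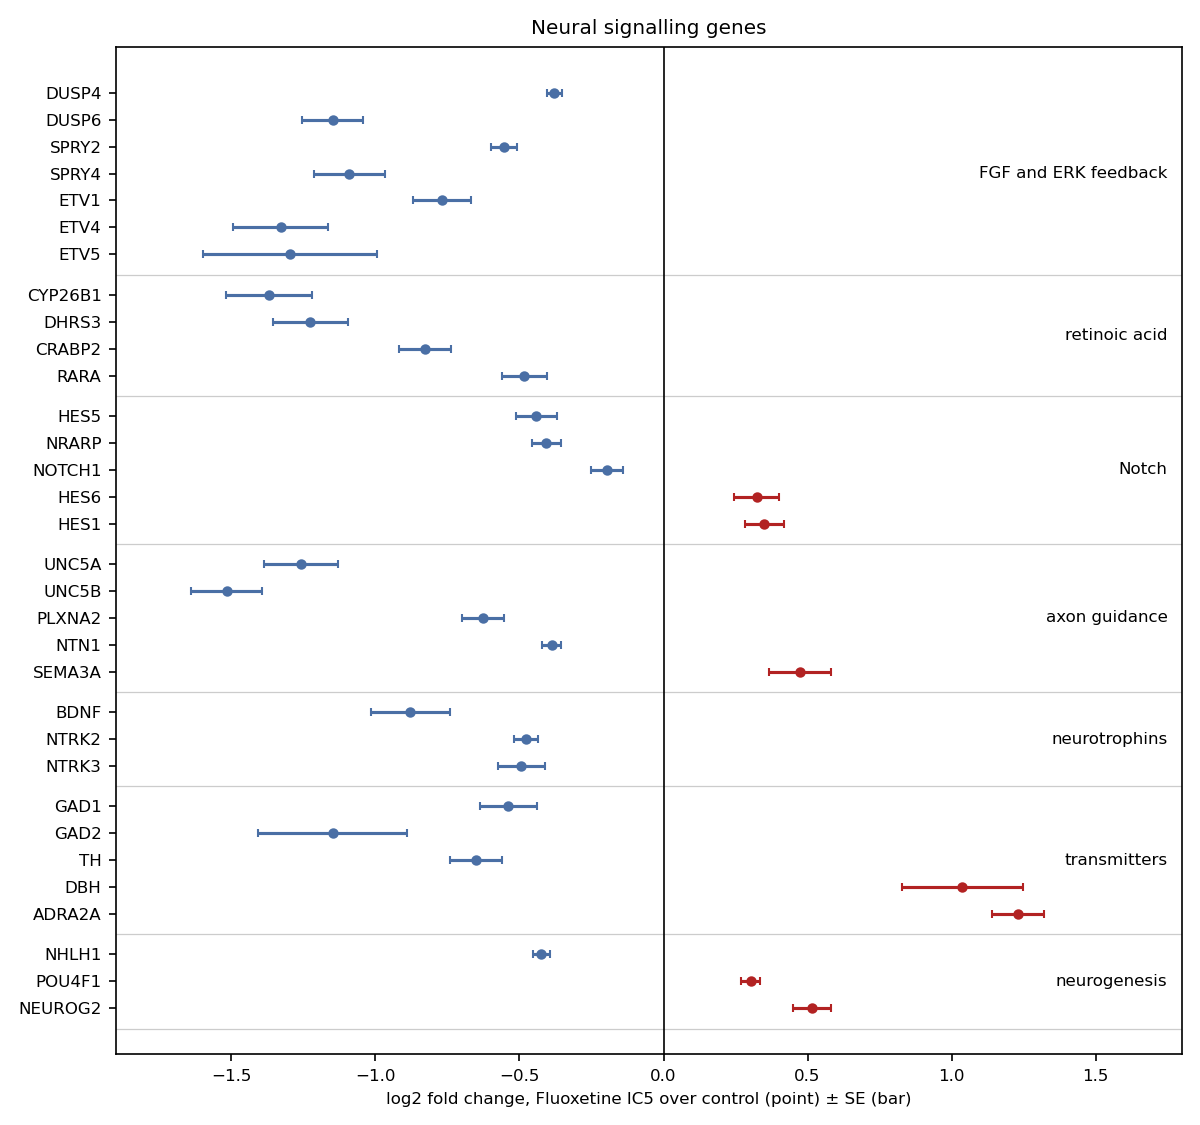
Log2 fold change of Fluoxetine IC5 over control libraries with its standard error for genes of growth factor feedback, retinoic acid, Notch, axon guidance, neurotrophins, transmitters and neurogenesis. UNC5B, DUSP6 and DHRS3 lie far to the left, at -1.52, -1.15 and -1.23, and NEUROG2 and SEMA3A to the right, at 0.52 and 0.47.

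The target of fluoxetine was near the filter on low values. SLC6A4, the serotonin transporter, had a median of 14.9 in Fluoxetine IC5 libraries and 18.7 in control libraries and did not pass (-0.11 ± 0.22, adjusted p = 0.843). Of 30 genes of serotonin and monoamine signalling 16 passed the filter on low values, and 2 of these rose and 1 fell. Among all genes tested 5.47% rose and 5.94% fell, and whether counts this small differ from those shares was not tested. TPH1, a tryptophan hydroxylase, measured 88.2 to 122 (median 103) in Fluoxetine IC5 libraries, against 62.2 to 91.7 (median 84.8) in control libraries. The TPH1 ranges overlapped, with a log2 fold change of 0.32 ± 0.09, adjusted p = 0.0108. TPH2, the neuronal form of that enzyme, did not pass (0.21 ± 0.14, adjusted p = 0.383). Of 17 tested genes of transmitter identity 5 fell and 1 rose (median -0.15). TH, the rate-limiting enzyme of dopamine synthesis, measured 489 to 550.1 (median 512) in Fluoxetine IC5 libraries, against 713 to 931 (median 812) in control libraries. This fall of TH left no overlap between the groups (log2 fold change -0.65 ± 0.09, adjusted p = 4.56e-08). GAD2, which makes GABA at synapses, measured 23.3 to 80.7 (median 44.8) in Fluoxetine IC5 libraries, against 43.4 to 125 (median 109) in control libraries. For GAD2 some libraries of the groups overlapped, at a log2 fold change of -1.15 ± 0.26, adjusted p = 0.000806. GAD1, the other glutamate decarboxylase, also fell (-0.54 ± 0.10, adjusted p = 3.83e-05). DBH, which turns dopamine into noradrenaline, measured 14.8 to 57.5 (median 20.9) in Fluoxetine IC5 libraries, against 5.48 to 26.7 (median 9.86) in control libraries. The DBH ranges overlapped, with a log2 fold change of 1.04 ± 0.21, adjusted p = 0.000188.

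Neurotrophin genes fell in 5 of 12 tested cases and rose in none (median -0.44). BDNF, whose protein the medium also supplied, measured 9.98 to 24.9 (median 17.3) in Fluoxetine IC5 libraries, against 23.0 to 38.3 (median 32.4) in control libraries. For BDNF some libraries of the groups overlapped, at a log2 fold change of -0.88 ± 0.14, adjusted p = 8.26e-07. NTRK2, its receptor TrkB, measured 3720.1 to 4826 (median 4624) in Fluoxetine IC5 libraries, against 5481 to 6626 (median 6222) in control libraries. NTRK2 showed no overlap between the groups (log2 fold change -0.48 ± 0.04, adjusted p = 1.9e-15). The receptors NTRK3 (-0.49 ± 0.08, adjusted p = 3.35e-06) and GFRA1 (-0.43 ± 0.12, adjusted p = 0.0116) also fell.

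The 15 largest rises among abundant protein-coding genes also held genes of no list used here. CDKN2B, the p15 inhibitor of cyclin-dependent kinases, measured 64.0 to 91.1 (median 74.0) in Fluoxetine IC5 libraries, against 15.9 to 50.6 (median 28.4) in control libraries. For CDKN2B the ranges did not overlap, at a log2 fold change of 1.32 ± 0.20, adjusted p = 4.24e-07. LRRC17, a secreted leucine-rich repeat protein, measured 185 to 271 (median 227) in Fluoxetine IC5 libraries, against 82.0 to 130.4 (median 108) in control libraries. The LRRC17 ranges were separate, with a log2 fold change of 1.10 ± 0.12, adjusted p = 3.68e-12. CPVL, a carboxypeptidase-like protein, measured 140.3 to 226 (median 179.8) in Fluoxetine IC5 libraries, against 46.3 to 122 (median 75.2) in control libraries. Every CPVL value in Fluoxetine IC5 libraries lay above every control value (log2 fold change 1.22 ± 0.17, adjusted p = 1.95e-08). SELENOP, the plasma selenium carrier, measured 64.9 to 135 (median 77.8) in Fluoxetine IC5 libraries, against 30.7 to 47.7 (median 41.2) in control libraries. This rise of SELENOP left no overlap between the groups (log2 fold change 1.06 ± 0.19, adjusted p = 1.6e-05). APLNR, the apelin receptor, measured 51.3 to 76.7 (median 70.0) in Fluoxetine IC5 libraries, against 28.5 to 44.5 (median 33.2) in control libraries. APLNR showed no overlap between the groups (log2 fold change 0.98 ± 0.14, adjusted p = 2.55e-07). Against Fluoxetine IC20/100, CDKN2B (adjusted p = 0.231), CPVL (0.347), SELENOP (0.548) and APLNR (0.202) did not pass. LRRC17 was higher there (0.46 ± 0.12, adjusted p = 0.00925), but not without the 3 libraries that stood apart (0.0786). None of these rises passed against Chlorpyrifos IC5 (adjusted p from 0.147 to 0.994). Among the largest falls, SCRG1, a secreted protein of neural and mesenchymal cells, measured 34.9 to 53.1 (median 41.2) in Fluoxetine IC5 libraries, against 148 to 187 (median 169) in control libraries. For SCRG1 the ranges did not overlap, at a log2 fold change of -1.98 ± 0.10, adjusted p = 7.24e-28. GDF1 headed the rises but shares exons with CERS1, so its reads cannot be assigned with confidence, and SULT1C2 varied widely, with 40.6 to 1459.5 in Fluoxetine IC5 libraries and 22.4 to 40.8 in control libraries.

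Set against Fluoxetine IC20/100, which shares the compound and the solvent, Fluoxetine IC5 libraries had 464 genes higher (2.3% of 20136 tested) and 294 lower (1.46%), of which 94 (0.467%) and 46 (0.228%) differed at least 1.5-fold. These counts were 699 and 476 without Methyl mercury IC20/100 replicate 8, a library of neither group that shares the estimate of spread, and 317 and 133 with only the 16 libraries fitted. That library differed from the rest of its group, with a deposited total of 21.0 M, against 18.4 to 18.8 M in the other 7, and 10.3% of it in the 20 highest genes, against 7.48 to 8.09%. Most cholesterol enzymes were higher than at IC20/100, with 17 of 20 higher and none lower (median log2 fold change 0.37). Fluoxetine IC20/100 had 2 of these enzymes higher and 5 lower than control, out of 1385 genes higher (6.88%) and 1519 lower (7.54%). HMGCS1 had a median of 33997 in Fluoxetine IC5 libraries and 21464 in Fluoxetine IC20/100 libraries, a log2 difference of 0.67 ± 0.04, adjusted p = 1.74e-21. SCD had 33989 and 20642 in these groups, a log2 difference of 0.72 ± 0.03, adjusted p = 1.32e-29. SREBF2, which did not pass against control, did so here (0.40 ± 0.06, adjusted p = 9.94e-08). Of their lists, 7 of 16 uptake and regulation genes, 7 of 19 fatty acid genes and 8 of 30 lysosomal hydrolases were higher than at IC20/100, with none lower. The lysosomal count was 5 without Fluoxetine IC5 replicate 2, replicate 7 or the 3 libraries that stood apart, 5 with only the 16 libraries fitted, and 4 without the filter on low values. FABP3 (2.45 ± 0.24, adjusted p = 1.12e-12), PRODH (0.93 ± 0.13, adjusted p = 1.49e-07) and NEU1 (0.46 ± 0.06, adjusted p = 1.46e-08) were higher as well, while CTSA did not pass (0.12 ± 0.10, adjusted p = 0.657).

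The amino acid genes were lower than in control libraries at both concentrations. In the ATF4 list 1 of 17 was higher and 3 lower at IC5 than at IC20/100 (median -0.02), the lower ones being 1 with only the 16 libraries fitted, and 15 of 17 were lower than control at each concentration, with medians of -1.30 at IC5 and -1.25 at IC20/100, comparisons that share their control libraries. The synthesis list had 8 of 16 lower and none higher at IC5 than at IC20/100 (median -0.31). ASNS had a median of 1236 in Fluoxetine IC5 libraries and 1757 in Fluoxetine IC20/100 libraries, a log2 difference of -0.56 ± 0.07, adjusted p = 1.27e-08. SLC7A3 had 189.6 and 265 in these groups, a log2 difference of -0.43 ± 0.05, adjusted p = 1.87e-09. The transporters followed, with 5 of 12 lower and none higher.

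Some mitotic and replication genes also differed between the concentrations. Mitotic genes were lower at IC5 in 9 of 18 cases and higher in none, a count that was 4 without Fluoxetine IC5 replicate 4, 5 without replicate 2 and 2 with only the 16 libraries fitted. Their sum ran from 19303 to 23178 at IC5 and from 23475 to 28095 at IC20/100, so those ranges too were separate. Replication genes were lower at IC5 in 3 of 18 cases and higher in none, but in 0 without Fluoxetine IC5 replicate 1 or replicate 2 or without the filter on low values, in 1 without replicate 7 or with only the 16 libraries fitted, and in 5 without Methyl mercury IC20/100 replicate 8. Fluoxetine IC20/100 had 16 of the 18 higher than control and 1 lower, beside 4 and 0 at IC5. DUSP4 had a median of 1182 in Fluoxetine IC5 libraries and 1456 in Fluoxetine IC20/100 libraries, a log2 difference of -0.32 ± 0.02, adjusted p = 7.97e-17. DHRS3 (-0.76 ± 0.13, adjusted p = 1.94e-05) and DUSP6 (-0.58 ± 0.11, adjusted p = 6.61e-05) were lower at IC5 too. Mesenchymal markers were higher at IC5 in 5 of 10 tested cases, in 2 without Fluoxetine IC5 replicate 7 and in 3 without replicate 8, without the 3 libraries that stood apart or with only the 16 libraries fitted, with COL3A1 at 186 and 89.8 (1.03 ± 0.13, adjusted p = 1.57e-08) and sums of 1835 to 2736 at IC5 and 1445 to 2048 at IC20/100. LMX1B, a factor of midbrain dopamine and serotonin neurons, was among the most significant genes above both control and Fluoxetine IC20/100. It measured 3092 to 3632 (median 3393) in Fluoxetine IC5 libraries, against 2501 to 2785 (median 2578) in control libraries. The LMX1B ranges were separate, with a log2 fold change of 0.38 ± 0.04, adjusted p = 1.34e-12. Fluoxetine IC20/100 libraries, at 2876 to 3260, overlapped Fluoxetine IC5 (log2 difference 0.16 ± 0.04, adjusted p = 0.0055). They were also above control (0.22 ± 0.04, adjusted p = 1.29e-05). The LMX1B difference from Chlorpyrifos IC5 libraries did not pass (-0.05 ± 0.04, adjusted p = 0.578). SYT11, a synaptotagmin in the same set, rose against control (0.17 ± 0.02, adjusted p = 2.41e-12) and was higher than at IC20/100 (0.13 ± 0.02, adjusted p = 2.23e-08). The set above both control and IC20/100 held 174 genes (0.864%) and the set below both 151 (0.75%).

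Chlorpyrifos IC5 offers another compound at the same label in the same solvent. Fluoxetine IC5 libraries had 644 genes higher (3.2%) and 730 lower (3.63%) than Chlorpyrifos IC5 libraries, of which 139 (0.69%) and 89 (0.442%) differed at least 1.5-fold. Of the 20 cholesterol enzymes 16 were higher and none lower in Fluoxetine IC5, while of the 17 ATF4 genes 3 were higher and 3 lower. Against the shared control libraries, Chlorpyrifos IC5 had 6 cholesterol enzymes higher and 5 lower, and 15 ATF4 genes lower, out of 1998 genes higher (9.92%) and 1964 lower (9.75%).

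The same genes can be followed through all 11 day 10 groups. SCD averaged 33792 ± 1479 in Fluoxetine IC5 libraries (SD, n = 8 per group), 13336 to 24238 over the means of the other 9 exposed groups and 24116 ± 994 in control libraries. FABP3 averaged 78.9 ± 8.3 in Fluoxetine IC5 libraries, 6.35 to 19.0 over the means of the other 9 exposed groups and 17.4 ± 5.89 in control libraries. PRODH averaged 241 ± 21.6 in Fluoxetine IC5 libraries, 81.3 to 173 over the means of the other 9 exposed groups and 116 ± 15.4 in control libraries. INSIG1 averaged 2139 ± 162 in Fluoxetine IC5 libraries, 794 to 1444 over the means of the other 9 exposed groups and 1339 ± 88.0 in control libraries. For these 4 genes the Fluoxetine IC5 mean was the highest of the 11 groups.

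ASNS followed another order, with a mean of 1193 ± 115 in Fluoxetine IC5 libraries. The other groups given from DMSO averaged 1755 ± 138 in Fluoxetine IC20/100, 1502 ± 83.1 in Chlorpyrifos IC5, 1717 ± 129.5 in Chlorpyrifos IC20/100, 2632 ± 309 in Methyl mercury IC5 and 1823 ± 329.7 in Methyl mercury IC20/100. Among groups whose compound was dissolved in medium, ASNS averaged 1248 ± 111 in Acrylamide IC5 and 1412 ± 73.5 in Valproic acid IC5, but 3586 ± 311 in Acrylamide IC20/100 and 2853 ± 372 in Valproic acid IC20/100. Control libraries averaged 3759.9 ± 368. The Acrylamide IC20/100 libraries, labelled as exposed, ran from 3311 to 4108 for ASNS and from 23298 to 25101 for SCD, within the ranges of 3092 to 4228 and 22513 to 25623 in control libraries, and their labels were used as given. DUSP6 averaged 196 ± 34.3 in Fluoxetine IC5 libraries, 278 to 563 over the means of the other 9 exposed groups and 435 ± 72.5 in control libraries. What the amino acid genes and the p53 targets owe to fluoxetine and what to conditions shared with other exposed cultures was not tested.

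**Figure D5:**
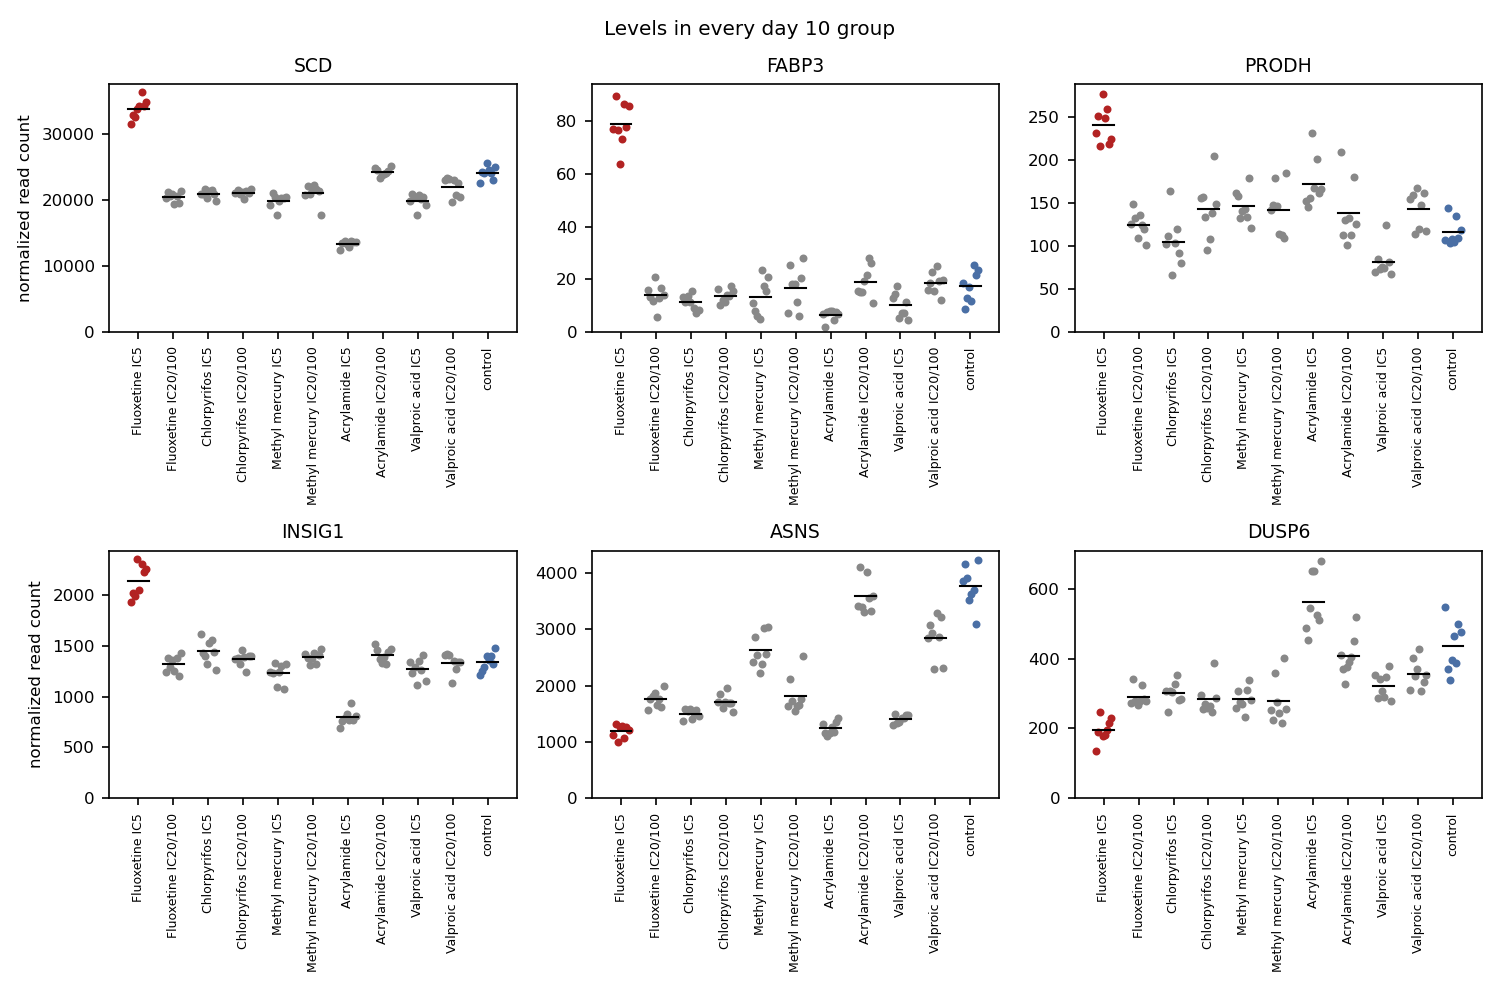
Deposited values of SCD, FABP3, PRODH, INSIG1, ASNS and DUSP6 in the 11 day 10 groups, 1 point per library with a bar at the mean, Fluoxetine IC5 at the left and control at the right. Fluoxetine IC5 has the highest mean for SCD, FABP3, PRODH and INSIG1, whereas ASNS is low in several exposed groups.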

How the data were processed

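RNA of 96 libraries in 12 groups was sequenced in 6 runs, per the labels. The deposited table holds 58434 genes as a normalised signal, gene counts that the authors divided by a size factor per library, with Salmon 1.3.0 and DESeq2 1.30.0 on GRCh38, after bcl2fastq, FastQC 0.11.8 and MultiQC 1.0, per the submitters' processing notes. No source used here names the annotation release. In every library 100% of the deposited values were whole multiples of 1 step within 0.001 read, so whole reads were recovered for the count tools and for depth, 9.49 to 29.6 M reads over all libraries. No interval for counting error was used, since the replicate spread was.

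The main fit used limma 3.58.1 (R 4.3.3) on log2(deposited value + 2) with a trended prior, group and run as terms, in the 88 day 10 libraries (72 residual degrees of freedom), for genes that reached 10 in 8 or more libraries. Fold changes on this scale understate those of low genes. Benjamini-Hochberg adjustment ran over 20136 genes. At an unadjusted p below 0.05, 4665 genes differed from control and 2909 from Fluoxetine IC20/100. Alternatives were edgeR 4.0.16, DESeq2 1.42.0, other pseudocounts, filters, scalings, terms and left-out libraries. The code was tested on simulated data. No 2 libraries of Fluoxetine IC5 or of control agreed within sampling noise.

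Named genes are members of the lists, the 15 largest rises and falls among protein-coding genes changed at least 1.5-fold with a mean of at least 50 in the higher group and the same direction in all 6 runs, and the 10 most significant in each direction against both control and Fluoxetine IC20/100. Members and lists were chosen with earlier results of these data known. Positions are from GENCODE 29, matched by gene ID for 58171 genes, and symbols for 58199. Promoter sequences, with matches searched in 250 bases before the start, are from RefSeq on GRCh38.p14. Some members are not reported here, and list counts include them.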

Additional observations from a re-analysis of the deposited data

Results flagged for a closer look

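Within the groups of 8, a library was set aside for a closer look when its gap to the nearest other library was more than Dixon's 95% critical share of the range of the group. Among 147 genes named above, each checked in both groups, 22 of the 294 checks met this (7.5%), and chance alone gives about 1 in 20.

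Fluoxetine IC5 replicate 1 stood apart for SULT1C2 at 1459.5 (others 40.6 to 71.1). Replicate 3 stood apart for DBH at 57.5 (others 14.8 to 22.1), LAMP2 at 1214 (others 1339.9 to 1425) and NTRK2 at 3720.1 (others 4480.3 to 4826). Replicate 5 stood apart for AQP4 at 7.78 (others 0 to 2.65) and UNC5B at 163 (others 208 to 232). Replicate 6 stood apart for ATF5 at 391 (others 283 to 311), MDM2 at 2919 (others 1215 to 1965) and SLC38A2 at 1956 (others 2332 to 2647). Replicate 7 stood apart for CTSD at 1740.3 (others 1296 to 1500.2) and SCRG1 at 53.1 (others 34.9 to 42.5). Without Fluoxetine IC5 replicate 1, as without control replicate 4, 5 or 6, SULT1C2 was no longer called against control. Fluoxetine IC5 replicates 3 and 6 are the libraries that also stood apart on the principal components.

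Control replicate 1 stood apart for GAD2 at 43.4 (others 89.6 to 125). Replicate 3 stood apart for NUPR1 at 47.8 (others 14.9 to 30.1). Replicate 4 stood apart for MDM2 at 2854 (others 1569.7 to 2147) and STARD4 at 1660 (others 1188 to 1378). Replicate 5 stood apart for APLNR at 44.5 (others 28.5 to 35.0) and DBH at 26.7 (others 5.48 to 11.7). Replicate 7 stood apart for ATP6V0D1 at 1019 (others 797 to 893), CLN3 at 334 (others 180.2 to 234), NTRK3 at 3810.4 (others 2206 to 2645) and PMAIP1 at 179.9 (others 254 to 304). Replicate 8 stood apart for CTSB at 2768 (others 1483 to 2000.3).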

How the results depend on the processing

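Against control, the counts of 1102 higher and 1197 lower genes became 1162 and 1182 with edgeR, 1208 and 1314 with DESeq2, 854 and 1028 without the filter on low values, 952 and 1065 without the run term, and 874 and 1064 with only the 16 libraries compared. Leaving out 1 Fluoxetine IC5 or control library at a time gave 887 to 1168 higher and 1044 to 1219 lower genes, 124 to 165 and 313 to 365 of them at least 1.5-fold. A pseudocount of 8 lowered the genes at least 1.5-fold higher to 85, and compresses folds of low genes by construction. Leaving out 1 Fluoxetine IC5 library, but none of the other group, gave 386 to 455 higher and 223 to 307 lower genes against Fluoxetine IC20/100 (84 to 103 and 42 to 57 at least 1.5-fold), and 533 to 591 and 603 to 689 against Chlorpyrifos IC5 (122 to 144 and 75 to 104).

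Against Fluoxetine IC20/100, 46 genes were at least 1.5-fold lower, but 26 with a pseudocount of 8, 24 with only the 16 libraries compared and 72 with DESeq2. The lower genes, 294 in all, were 133 with only those 16 libraries. Without Methyl mercury IC20/100 replicate 8 there were 699 higher and 476 lower, and 1546 higher and 1538 lower against control. Against Chlorpyrifos IC5 the 730 lower genes became 442, and the 89 at least 1.5-fold lower became 47, with only the 16 libraries compared. The cause was not tested, beyond the fewer residual degrees of freedom (9) of a fit of 16 libraries.

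With the replicate number as a block 1223 genes were higher and 1296 lower than control, 515 and 360 against Fluoxetine IC20/100, and 709 and 807 against Chlorpyrifos IC5. The numbers did not pair the libraries, since deviations of same-numbered libraries correlated at a median of 0.0177 and none of 8 matched its own number best. Among list and named genes called against control or Fluoxetine IC20/100, none reversed under any alternative that tested it. Genes not called, and the comparison with Chlorpyrifos IC5, were not followed in this way. The fit without Fluoxetine IC5 replicates 3 and 6 and control replicate 7, chosen after seeing the data, kept 378 of 441 such calls. Differences within single runs rest on 1 or 2 libraries a group and were used only for their direction.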

Other observations

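Several smaller gene groups were measured but belong to no comparison above. Of 21 ion channel genes 2 were higher and 5 lower in Fluoxetine IC5 than in control libraries, the lower ones being 3 without Fluoxetine IC5 replicate 5, 6 or 8 or control replicate 1 or 6. CACNA1G, a T-type calcium channel, measured 71.3 to 113 (median 83.6) in Fluoxetine IC5 libraries, against 133 to 194 (median 155) in control libraries. Every CACNA1G value in Fluoxetine IC5 libraries lay below every control value (log2 fold change -0.86 ± 0.10, adjusted p = 4.88e-10). HCN3, a pacemaker channel, measured 1436 to 1608 (median 1508) in Fluoxetine IC5 libraries, against 1033 to 1363 (median 1249) in control libraries. This rise of HCN3 left no overlap between the groups (log2 fold change 0.31 ± 0.05, adjusted p = 9.29e-06). Of 13 immediate early genes 1 was higher, beside 5.47% of all genes tested. It was JUN (0.20 ± 0.05, adjusted p = 0.00286), and it was also higher than in Fluoxetine IC20/100 libraries (0.49 ± 0.05, adjusted p = 8.04e-12).

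Of 5 tested metallothionein and zinc genes 1 was higher, MT2A, a metal-binding protein, at 18.7 to 37.2 (median 24.8) in Fluoxetine IC5 libraries, against 6.51 to 20.4 (median 13.1) in control libraries. The MT2A ranges overlapped, with a log2 fold change of 0.98 ± 0.19, adjusted p = 6.95e-05. Its difference from Fluoxetine IC20/100 did not pass (0.07 ± 0.19, adjusted p = 0.931). Of 13 heat shock genes 1 was higher, beside the same 5.47%. It was HSPA1B (0.20 ± 0.06, adjusted p = 0.0108), while HSPB1 (-0.05 ± 0.09, adjusted p = 0.82) and HSP90AA1 (-0.01 ± 0.04, adjusted p = 0.94) did not pass. Of 13 mitochondrially encoded genes 2 were higher and none lower than in control libraries, MT-ND4 (0.23 ± 0.05, adjusted p = 0.000557) and MT-ND5 (0.20 ± 0.06, adjusted p = 0.00844), and 2 were higher (1 with only the 16 libraries fitted) and 3 lower than in Fluoxetine IC20/100 libraries.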
